A study of Homo sapiens with 29 samples.

Results

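The comparison set 3 libraries of C4-2 cells given NU7441 together with enzalutamide (NU7441+Enza) against 3 libraries of C4-2 cells given NU7441 alone, and so measured what the antiandrogen added to cells whose DNA-PK was inhibited. The 6 libraries were taken by their sample titles from a series of 29, of which 24 came from C4-2. C4-2 is a castration-resistant prostate cancer line derived from LNCaP, and per the labels it was grown in medium with hormone. NU7441 and enzalutamide were each given at 1 µM for 24 h, and the NU7441 that all 6 libraries shared was at the same dose. A pair of further groups of 3 libraries, untreated cells (Ctrl) and cells given enzalutamide alone (Enza), gave the enzalutamide effect without NU7441, and libraries with the kinase inhibitors CC-115 and CC-223 gave it beside other compounds. Ctrl carries no agent in its labels, and a vehicle is not named there. The line is a single cell line in culture, and the labels do not say whether libraries of a group came from separate cultures. The p-values thus measure only the spread between libraries, estimated over all 24 from C4-2 and not the 6 alone.

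Androgen signalling drives secretory and lipid genes in luminal prostate cells, and prostate-specific antigen (KLK3) is its best known target. Enzalutamide is an antiandrogen that blocks this signalling and is used against advanced prostate cancer. DNA-PK, whose catalytic subunit is encoded by PRKDC, joins broken DNA ends, and NU7441 inhibits its kinase activity.

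Levels are CPM, read counts relative to library totals scaled by the trimmed mean of M-values (TMM), and changes are log2 fold changes ± SE of NU7441+Enza minus NU7441 from a joint edgeR quasi-likelihood fit. A gene was called, and is said here to have risen or fallen, at a Benjamini-Hochberg adjusted p under 0.05 over 22860 genes tested. Total counts, in mega-reads, were 32.74 to 39.18 per NU7441 library and 35.49 to 42.38 per NU7441+Enza library, and mitochondrial RNA took 1.09% to 1.41% and 1.37% to 1.98% of them. Replicate 2 of NU7441 stood apart in growth genes. Its summed level over 26 mitotic genes was 2286 CPM against 3858 and 3825 CPM in the other NU7441 libraries. For some genes and lists where it differed, the value without it is also given. For the others only the value with it is given.

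Enzalutamide on top of NU7441 changed 1389 of the genes tested (6.08%), of which 629 rose (2.75%) and 760 fell (3.32%). Falls reached further than rises. At least 2-fold changes were seen for 304 falls and 231 rises, and at least 4-fold changes for 108 falls and 49 rises. All 3 libraries of one group lay beyond all 3 of the other for 756 of the falls and 625 of the rises, where 14.0% and 14.3% of all genes tested separated in those directions. The median of all genes was 0.01. The fit of the 6 libraries alone called 2759 of 20050 genes (13.8%), and the joint fit without replicate 1 of Enza and replicate 1 of CC-115+Enza, which spread most within their groups, called 3632.

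**Figure D1:**
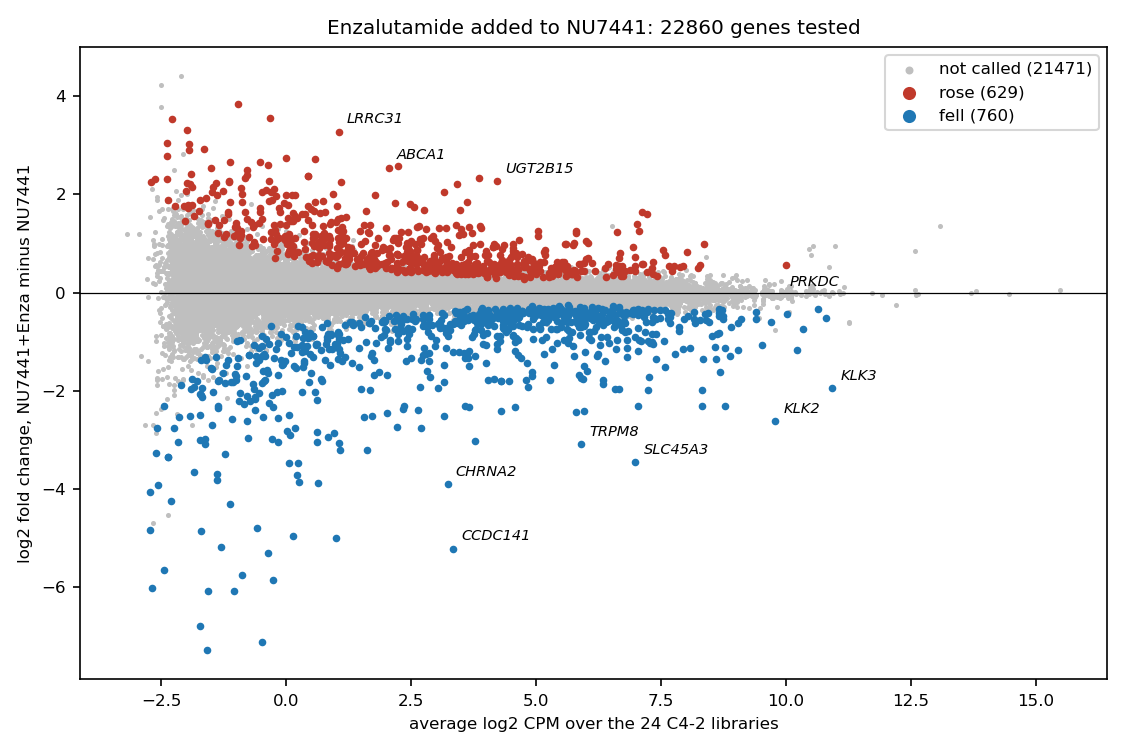
Log2 fold change of NU7441+Enza minus NU7441 (vertical axis) against the average log2 CPM over the 24 C4-2 libraries (horizontal axis), 1 point per gene tested. Red points are the 629 genes that rose and blue points the 760 that fell; the named abundant falls are KLK3, KLK2 and SLC45A3, while PRKDC lies near 0.

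KLK3 and KLK2, neighbouring kallikrein genes on chromosome 19 and both known androgen targets, were among the most abundant genes that fell. Their promoters are shown because KLK3 was the only one of 28 androgen-induced genes that fell with a promoter window in RefSeq to hold a match to the androgen response element as searched here. Each line gives the 250 bases before the RefSeq start on the plus strand in GRCh38.p14, chr19:50854665-50854914 for KLK3 and chr19:50873189-50873438 for KLK2. Capitals mark the 15 bases of the element.
KLK3: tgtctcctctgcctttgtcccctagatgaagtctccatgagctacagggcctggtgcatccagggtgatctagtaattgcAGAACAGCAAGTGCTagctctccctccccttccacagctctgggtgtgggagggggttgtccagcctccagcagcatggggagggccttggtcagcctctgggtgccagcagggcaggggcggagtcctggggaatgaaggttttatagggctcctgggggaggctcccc
KLK2: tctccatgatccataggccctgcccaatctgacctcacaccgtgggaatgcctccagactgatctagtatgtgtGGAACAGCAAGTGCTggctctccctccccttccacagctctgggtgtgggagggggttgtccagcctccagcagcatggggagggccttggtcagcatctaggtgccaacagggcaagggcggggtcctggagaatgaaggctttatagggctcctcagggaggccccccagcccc
The element was searched on both strands as AGAACA, 3 bases of any kind and 6 bases of which at least 4 equal TGTTCT. In KLK3 it lies 170 to 156 bases before the start and 4 of the last 6 bases match. The aligned KLK2 stretch, 176 to 162 bases before its start, differs from it at 1 of 15 bases, A1G counted from the 5′ end, and so was not matched. Over the windows 185 of 244 aligned bases were equal. AGAACA on either strand stood in 12.4% of 27305 promoters, in 8.22% of 12816 promoters of tested genes, in 9.14% of 525 promoters of genes that fell and in 8.75% of 423 of those that rose. The whole element stood in 0.656% of all promoters, in 0.265% of those of tested genes, in 0.19% of those of genes that fell, in 0.236% of those of genes that rose and in none of 10 among the 12 largest falls. A match in this window is a description of the sequence only, and enhancers farther away were not searched.

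KLK3 (ENSG00000142515, chromosome 19, 51358171 to 51364020 in hg19) stood at 2294, 2441 and 2180 CPM in the NU7441 libraries and at 583, 627 and 596 CPM in the NU7441+Enza libraries. Every library with Enza was far below every library without it. The fall was 3.83-fold (−1.94 ± 0.12, n = 3 libraries per group, edgeR adjusted p = 4.1e-12). KLK2 (ENSG00000167751, 51364824 to 51383823), which encodes another secreted protease of the same cluster, went from 703, 654 and 664 CPM to 104, 113 and 111 CPM, a 6.15-fold fall (−2.62 ± 0.13, edgeR adjusted p = 9.24e-14). KLK4, whose product activates other kallikreins, fell by 1.48 ± 0.12, KLK15 by 0.90 ± 0.14 and the pseudogene KLKP1 by 0.98 ± 0.20 on the log2 scale. How reads with several alignments were counted is not given in the sources used here, so reads of the similar KLK2 and KLK3 may have been split or lost between them. TMPRSS2 (ENSG00000184012, chromosome 21, 42836478 to 42903043), a membrane protease whose promoter often drives ERG fusions in prostate cancer, stood at 373, 520 and 366 CPM with NU7441 and at 86.4, 84.4 and 84.3 CPM with Enza added. Replicate 2 of NU7441 was the high one, and the fall was 2.30 ± 0.12 on the log2 scale with it and 2.14 without it.

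Of the 14 kallikreins and secreted proteins tested, 9 fell and 1 rose, with a median of −0.99. ACP3, prostatic acid phosphatase, was the one that rose, from 11.99, 14.8 and 11.1 CPM to 21.7, 22.3 and 21.3 CPM (0.78 ± 0.10). ADAM7, a metalloprotease-like membrane protein, had 34 to 65 reads per NU7441 library and 1 to 2 per NU7441+Enza library, too few to give a size of its fall. MSMB and NPY were at 0 CPM in all 6 libraries and were not tested. Together with 2 further lists of androgen-induced genes, 55 were tested, 38 fell and 2 rose, with a median of −0.92. Without replicate 2 of NU7441 the medians of the 3 lists were −1.02, −0.65 and −1.11, against −0.99, −0.68 and −1.05 with it. The lists were chosen as known androgen targets with results of the series known, so their direction is no independent evidence.

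Membrane and transport proteins of the androgen program made up 16 of these genes. Of them 10 fell and none rose, and all 16 values were below 0 with a median of −0.68. SLC45A3 (ENSG00000158715, chromosome 1, 205626979 to 205649587), the transporter known as prostein, went from 171, 185 and 170 CPM to 15.2, 16.4 and 16.5 CPM. That was a 10.9-fold fall (−3.45 ± 0.12, edgeR adjusted p = 7.26e-17). TRPM8, the cold-sensing ion channel, went from 86.9, 68.1 and 91.3 CPM to 9.72, 9.73 and 9.63 CPM (−3.08 ± 0.11). CHRNA2, a nicotinic acetylcholine receptor subunit, went from 11.9, 7.69 and 12.6 CPM to 0.560, 0.695 and 0.906 CPM (−3.90 ± 0.22). Both were lowest in replicate 2 among the NU7441 libraries. ABCC4, an exporter of cyclic nucleotides and drugs, fell by 1.62 ± 0.10 on the log2 scale from a mean of 473 CPM to one of 154 CPM.

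Among regulators and signalling genes induced by androgen, 19 of 25 fell and 1 rose, with a median of −1.05. MAF, a leucine zipper factor, went from 12.02, 12.4 and 13.3 CPM to 1.68, 1.18 and 1.76 CPM (−3.03 ± 0.14). PMEPA1, a brake on TGF-beta signalling, fell by 2.44 ± 0.11 and INPP4B, a phosphatase that counters PI3-kinase signalling, by 2.32 ± 0.16 on the log2 scale. No library of PMEPA1 or INPP4B crossed to the side of the other group. FKBP5, a chaperone partner of steroid receptors, stood at 228, 140 and 237 CPM with NU7441 and at 81.8, 73.5 and 79.9 CPM with Enza added. Its replicate 2 of NU7441 was low, and the fall was 1.36 ± 0.14 with that library and 1.59 without it. The gene that rose was TSC22D3, a leucine zipper gene that glucocorticoids also induce (0.57 ± 0.13).

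**Figure D2:**
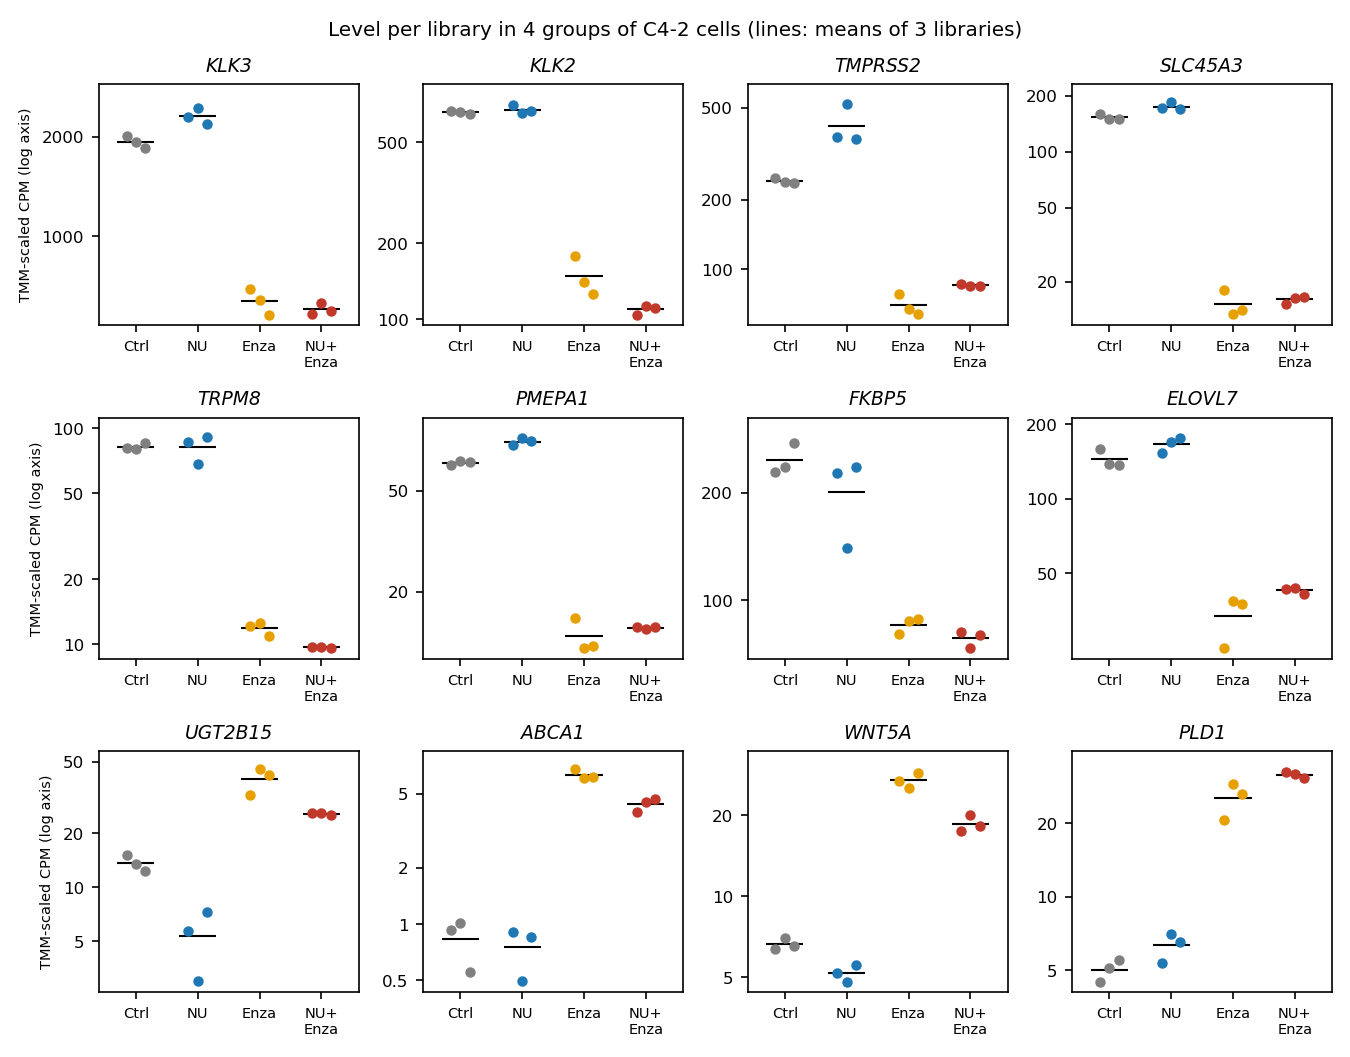
TMM-scaled CPM on a log axis for 12 genes in the Ctrl, NU7441 (NU), Enza and NU7441+Enza (NU+Enza) libraries of C4-2, with 1 point per library and a line at the mean of 3. In the top 7 panels, from KLK3 to FKBP5, and in ELOVL7 every library with Enza lies below every library without it, and in the bottom row every library with Enza lies above.

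Of 21 genes tested that were listed here as androgen-repressed, 10 rose, 2 fell and 9 were not called, with a median of 0.61 and 5 values below 0. UGT2B15, which glucuronidates and so clears androgens, went from 5.73, 2.99 and 7.27 CPM to 25.9, 25.8 and 25.2 CPM (2.27 ± 0.19, edgeR adjusted p = 1.21e-09). UGT2B17, an enzyme of the same function, went from 1.96, 1.13 and 1.80 CPM to 5.29, 5.53 and 6.43 CPM (1.81 ± 0.21). Both were lowest in replicate 2 of NU7441. They are near-identical copies, so their separate values are uncertain. ACKR3, a scavenging chemokine receptor, rose by 1.24 ± 0.14, the intestinal disaccharidase gene SI by 1.19 ± 0.14 and the receptor kinase gene MET by 0.83 ± 0.12. The 2 that fell were TMEFF2, a transmembrane protein of prostate and brain, from 20.2, 22.7 and 21.8 CPM to 3.82, 4.86 and 4.28 CPM (−2.32 ± 0.11), and BMPR1B, a receptor for bone morphogenetic proteins (−1.80 ± 0.11). Whether androgen represses these 2 genes in C4-2 was not tested, and their place in the list is uncertain.

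The kinase that NU7441 inhibits was not called. PRKDC (ENSG00000253729, chromosome 8, 48685669 to 48872743) stood at 1086, 878 and 1088 CPM and at 932, 986 and 1051 CPM, which overlapped (−0.04 ± 0.10, edgeR adjusted p = 0.954). Of 19 genes for nuclear receptors, pioneer factors and coregulators 2 rose and 2 fell, with a median of 0.05. PGR, the progesterone receptor, rose from 0.477, 0.406 and 0.366 CPM to 2.17, 2.22 and 2.21 CPM (2.38 ± 0.24). GATA2, a pioneer factor of prostate cells, rose by 0.44 ± 0.10, while the corepressor NCOR1 fell by 0.36 ± 0.10 and NR3C2, the mineralocorticoid receptor, by 0.65 ± 0.08 on the log2 scale. The calls of GATA2 and NCOR1 ended with no filter on low counts and without each of 3 single libraries, at edgeR adjusted p of 0.053 to 0.0822 and 0.0557 to 0.139. The pioneer factor FOXA1 (−0.18 ± 0.11) and the homeobox factor HOXB13 (0.21 ± 0.12) were not called.

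The 12 largest falls among abundant protein-coding genes ran from CCDC141 to CYP11A1. Abundant here means only an average log2 CPM of at least 1 over the 24 C4-2 libraries. CCDC141, a coiled-coil protein, had 161 to 422 reads per NU7441 library and 5 to 12 per NU7441+Enza library (−5.21 ± 0.31, edgeR adjusted p = 3.78e-12). The size of this fall is uncertain at so few reads. Replicate 2 of NU7441 was also low, at 4.67 CPM against 11.2 and 11.9 CPM. CYP11A1, which makes pregnenolone from cholesterol in the first step of steroid synthesis, went from 6.95, 7.40 and 7.15 CPM to 0.950, 1.34 and 1.44 CPM (−2.53 ± 0.18). HPGD, which breaks down prostaglandins, fell by 3.07 ± 0.24 and had 6 to 19 reads per NU7441+Enza library. WWTR1, the Hippo pathway coactivator TAZ, went from 3.37, 2.81 and 3.08 CPM to 0.463, 0.241 and 0.283 CPM (−3.20 ± 0.25). NNMT, which methylates nicotinamide, fell by 2.76 ± 0.24, the desmosomal cadherin gene DSC1 by 2.74 ± 0.21 and DOCK8, a guanine nucleotide exchange factor, by 3.21 ± 0.28. DOCK8 had 4 to 11 reads per NU7441+Enza library, so the size of its fall is uncertain. Of the steroid synthesis and breakdown genes as a list, 2 of 15 fell, these being CYP11A1 and HPGD, and HSD3B1, which oxidises pregnenolone and DHEA, rose at 5 to 49 reads per library (1.64 ± 0.33).

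Rises among abundant protein-coding genes were smaller, from 3.27 for LRRC31 to 1.77 for CLEC2A among the first 12. LRRC31, a leucine-rich repeat protein, went from 0.477, 0.232 and 0.733 CPM to 4.77, 4.81 and 4.36 CPM (3.27 ± 0.24, edgeR adjusted p = 1.19e-10). ABCA1, which exports cholesterol to lipoprotein particles, went from 0.902, 0.493 and 0.855 CPM to 3.99, 4.49 and 4.70 CPM (2.54 ± 0.19). PLD1, a phospholipase that makes phosphatidic acid, went from 5.36, 7.08 and 6.54 CPM to 32.5, 31.8 and 30.5 CPM (2.32 ± 0.14). The first 2 were rises of 9.67-fold and 5.82-fold. No overlap between groups was a condition for choosing these 12 genes and the 12 largest falls, so their separation is no result. GC, the vitamin D-binding protein, rose by 2.58 ± 0.19, CAMK2N1, an inhibitor of the calcium-calmodulin kinase CaMKII, by 2.20 ± 0.11 and the amino acid transporter gene SLC6A20 by 2.24 ± 0.21. WNT5A, a secreted ligand of noncanonical Wnt signalling, went from 5.20, 4.82 and 5.53 CPM to 17.4, 19.97 and 18.2 CPM (1.84 ± 0.13). The synaptic vesicle gene UNC13C (2.05 ± 0.19) and the adhesion gene AMIGO2 (1.98 ± 0.18) also rose.

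Long noncoding RNAs moved in both directions. Of 8 androgen-regulated ones tested, 4 fell and 1 rose, with a median of −0.66. PART1 stood at 2.84, 2.87 and 2.57 CPM with NU7441 and at 1.44, 1.79 and 1.501 CPM with Enza added (−0.81 ± 0.21), and ARLNC1 fell by 0.92 ± 0.25. Leaving out 1 library ended the call of PART1 for 3 of the 6 and that of ARLNC1 for 4 of the 6, with edgeR adjusted p up to 0.0805 and 0.245. SOCS2-AS1 fell by 1.5 ± 0.33, and POTEF-AS1 fell to 3 to 4 reads per library from 21 to 28. DRAIC, which is known to be repressed by androgen, rose by 0.74 ± 0.14. The largest falls of abundant noncoding RNAs were HECW2-AS1 (−1.98 ± 0.23), FAM13A-AS1 (−1.72 ± 0.23) and ENSG00000261061 (−1.69 ± 0.15), and the largest rises LINC02614 (1.83 ± 0.18), HOXA11-AS (1.66 ± 0.15) and HOXC13-AS (1.32 ± 0.13). The strand setting of the counting is not given in the sources used here, so reads of these antisense RNAs cannot be told from those of the genes they overlap.

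Most lipid synthesis genes had values below 0. Of 13 fatty acid genes 4 fell and 1 rose, with a median of −0.28. MBOAT2, which loads fatty acids onto lysophospholipids, went from 446, 477 and 460 CPM to 119, 114 and 117 CPM (−1.98 ± 0.12). The fatty acid elongase genes ELOVL7 (−1.96 ± 0.12) and ELOVL5 (−1.36 ± 0.14) and the acyl-CoA synthetase gene ACSL3 (−1.16 ± 0.11) fell as well, while ELOVL6 rose by 0.63 ± 0.11. In sterol synthesis 4 of 23 fell and 1 rose, with 20 values below 0 and a median of −0.23. FDFT1, which makes squalene, went from 479, 593 and 436 CPM to 362, 331 and 334 CPM (−0.56 ± 0.13). Without replicate 2 of NU7441, its highest library, the value was −0.44 and not called (edgeR adjusted p = 0.0869). SQLE, which oxidises squalene, fell by 0.34 ± 0.10 on the log2 scale. The fit of the 6 libraries alone, which called 13.8% of its genes, called 12 sterol genes, all lower. Leaving out 1 library of either group in turn called from 3 to 5 of the 23.

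Most genes of glycosylation and the secretory pathway also had values below 0, 14 of 16 and 17 of 19. Of 16 genes for glycosylation and the hexosamine pathway 6 fell and 1 rose, with a median of −0.29. ST6GALNAC1, which adds sialic acid to the Tn antigen, went from 112, 105 and 109 CPM to 19.1, 21.3 and 20.8 CPM (−2.41 ± 0.12). UAP1, which makes UDP-N-acetylglucosamine, went from 445, 424 and 425 CPM to 175, 159 and 170 CPM (−1.36 ± 0.13). GALNT7 (−0.80 ± 0.11) and GCNT1 (−0.71 ± 0.09), glycosyltransferase genes of O-glycan synthesis, also fell, and GALNT3 rose by 0.49 ± 0.10. Of 19 genes of the unfolded protein response and secretory pathway 4 fell and none rose, with a median of −0.23. HSP90B1, an endoplasmic reticulum chaperone, stood at 1547, 1547 and 1565 CPM with NU7441 and at 1107, 1092 and 1079 CPM with Enza added (−0.51 ± 0.11). CREB3L4, a membrane-bound transcription factor of secretory cells, fell by 0.60 ± 0.12 and the disulfide isomerase gene PDIA5 by 0.57 ± 0.11. The fit of the 6 libraries alone called 11 of these 19 genes, 10 of them lower.

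Some growth factor and nutrient genes were called, where 2.75% of all genes tested rose and 3.32% fell. IGF1R, the receptor for insulin-like growth factors, went from 21.9, 20.8 and 26.1 CPM to 5.87, 6.31 and 7.56 CPM (−1.80 ± 0.20). Its adaptor genes IRS1 (−0.76 ± 0.11) and IRS2 (−0.80 ± 0.18) and FOXO1 (−0.65 ± 0.11), a transcription factor that insulin signalling restrains, fell with it. In that list of FOXO targets and receptor feedback, 4 of 14 fell and 3 rose, the latter being ERBB2, FBXO32 and CCNG2. Of 11 targets shared with the glucocorticoid receptor 4 fell, led by the zinc finger gene ZBTB16 (−1.73 ± 0.17), and TSC22D3 rose. Polyamine genes had 3 falls among 11, the largest for SAT1, which acetylates spermidine and spermine (−1.12 ± 0.18, and −0.90 without replicate 2 of NU7441). Of 15 glycolysis and hypoxia genes 3 fell, the largest for PFKFB2 (−0.50 ± 0.12), which was not called without replicate 2 of NU7441 (−0.36, edgeR adjusted p = 0.0944). The calls of the others, HK2 and SLC2A1, ended in 7 and 2 of the alternatives, and EGLN3, an oxygen sensor, rose by 0.54 ± 0.11. MYC was the 1 of 18 genes for ribosome biogenesis and MYC that fell, from 275, 295 and 265 CPM to 203, 200 and 199 CPM (−0.47 ± 0.10). That share of the list (5.56%) lay near the 6.08% called among all genes tested. In ATF4 and amino acid supply 3 of 26 rose and 1 fell at a median of 0.23, with the serine synthesis genes PHGDH (0.55 ± 0.16) and PSAT1 (0.50 ± 0.12) among the rises. The call of PHGDH ended whichever 1 of the 6 libraries was left out. The fit of the 6 libraries alone called 13 of those 26 genes, and leaving out replicate 2 of NU7441 or replicate 1 of NU7441+Enza called 0.

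**Figure D3:**
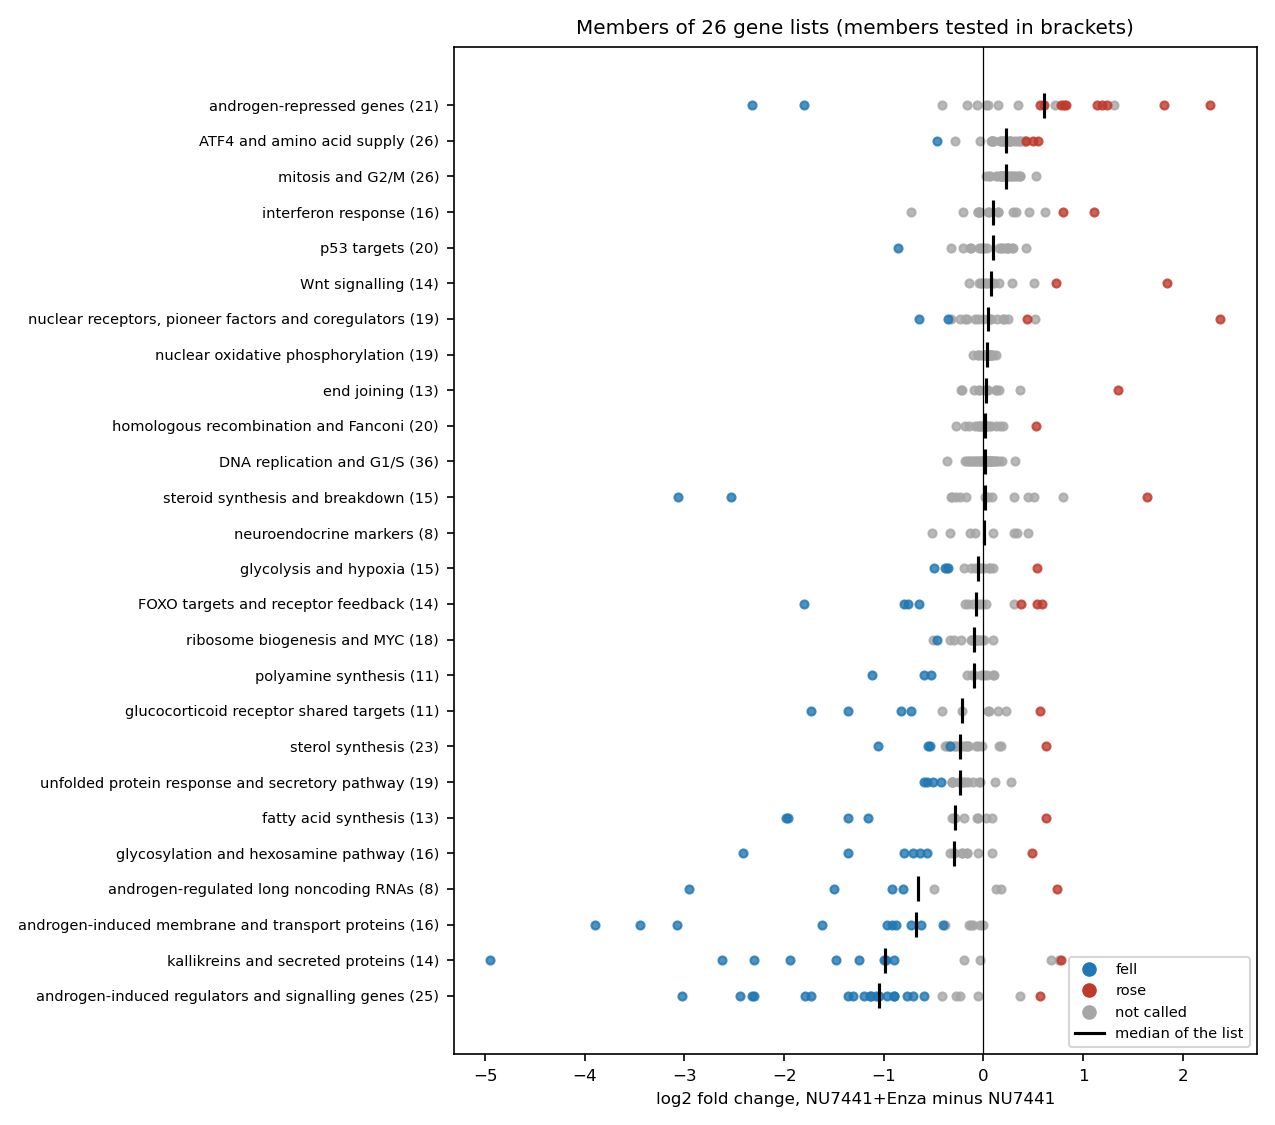
Log2 fold change of NU7441+Enza minus NU7441 (horizontal axis) for the tested members of 26 gene lists (rows, with the number tested), 1 point per gene, and a bar at the median of each list. The 3 androgen-induced lists and the noncoding list lie lowest, at medians of −1.05 to −0.66, and the androgen-repressed list highest, at 0.61.

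In the joint fit no gene of the replication and mitosis lists was called. Calls in the DNA repair lists (5.0% and 7.69%) and among p53 targets (5.0%) lay near the 6.08% of all genes tested. None of 36 replication and G1/S genes, 26 mitosis and G2/M genes and 19 nuclear oxidative phosphorylation genes was called by edgeR or by DESeq2, and 1, 3 and 0 of them had an unadjusted edgeR p under 0.05. The 26 mitotic values all lay above 0 with a median of 0.23. Without replicate 2 of NU7441, whose mitotic genes were low, 12 lay above 0 and 14 below and the median was −0.01. CDK1, the mitotic kinase, shows the library: it stood at 490, 324 and 492 CPM with NU7441 and at 469, 451 and 448 CPM with Enza added. The replication median went from 0.02 to −0.16 without that library, with 34 of 36 values below 0 and 1 gene called. In repair, BARD1, the partner of BRCA1, rose from 189, 197 and 184 CPM to 287, 275 and 262 CPM (0.53 ± 0.12) as 1 of 20 homologous recombination and Fanconi genes, and without replicate 3 of NU7441 or replicate 1 of NU7441+Enza it was not called. APLF, an end-joining scaffold, was the 1 of 13 called in its list, at 7 to 8 and 20 to 24 reads per library, and leaving out any 1 of the 6 libraries ended the call. Of 20 p53 targets only PLK2, a polo-like kinase, was called and it fell by 0.86 ± 0.12. None of 8 neuroendocrine markers was called by edgeR or by DESeq2, and 1 had an unadjusted edgeR p under 0.05.

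Interferon and Wnt genes held a few rises. GBP2, an interferon-induced GTPase, went from 3.48, 2.18 and 3.24 CPM to 6.28, 6.52 and 6.43 CPM (1.11 ± 0.20), and IRF1, a transcription factor of the interferon response, rose by 0.80 ± 0.14. They were 2 of 16 interferon genes, with a median of 0.10. RNF43, a ubiquitin ligase that removes Wnt receptors, rose by 0.73 ± 0.11 and was with WNT5A one of 2 among 14 Wnt genes. As to cell identity, the luminal keratins KRT8 (0.05 ± 0.13) and KRT18 (−0.08 ± 0.16) were not called, and 2 of 8 luminal markers fell, KLK3 among them. Of 6 basal markers KRT5 had 0 CPM in all 6 libraries, and KRT14 was called lower at 0.371, 0.058 and 0.336 CPM against 0.0487, 0.0267 and 0.0283 CPM. KRT14 was not tested in the fit of the 6 libraries alone, and its call ended when any 1 of the 6 other than replicate 2 of NU7441 was left out. Of 12 stromal, immune and endothelial markers 6 passed the filter on low counts, PECAM1 was at 0, and their summed level was 8.30 to 8.98 CPM with NU7441 and 9.52 to 11.0 CPM with Enza added. COL3A1, a fibrillar collagen gene and the 1 of them called, rose by 1.55 ± 0.29 from under 1 CPM, and the part of other cells in it was not tested.

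Whether enzalutamide acted differently with and without NU7441 was tested as an interaction, the change from NU7441 to NU7441+Enza minus that from Ctrl to Enza. No gene was called by edgeR, with a smallest adjusted p of 0.692, and none by DESeq2. At an unadjusted p under 0.05 there were 1548 genes (6.77%), among them 71 of the 629 rises and 72 of the 760 falls. The effect without NU7441, from Enza and Ctrl libraries that share none with the comparison, had 3679 calls (16.1%), with 9.35% of genes higher and 6.75% lower. Of the 1389 genes called with NU7441, 1112 were called there too and every one of these in the same direction, which is 80.1% of the first list and 30.2% of the other. In sign alone 1372 of the 1389 were alike. The median over the 629 rises was 0.77 with NU7441 and 0.81 without it, and over the 760 falls −0.80 and −0.77. Over the genes called without NU7441 the values were less alike. Their rises had a median of 0.28 with NU7441 and 0.69 without it, and their falls −0.34 and −0.54. The choice of these genes by their values without NU7441 bears on these medians. Replicate 1 of Enza, which spread most within its group, is among the libraries behind that choice. Across genes the effects had a Pearson r of 0.64 over all tested and 0.95 over those called with NU7441. Genes are not independent replicates, and a shared fit and the choice by large values both bear on this r.

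**Figure D4:**
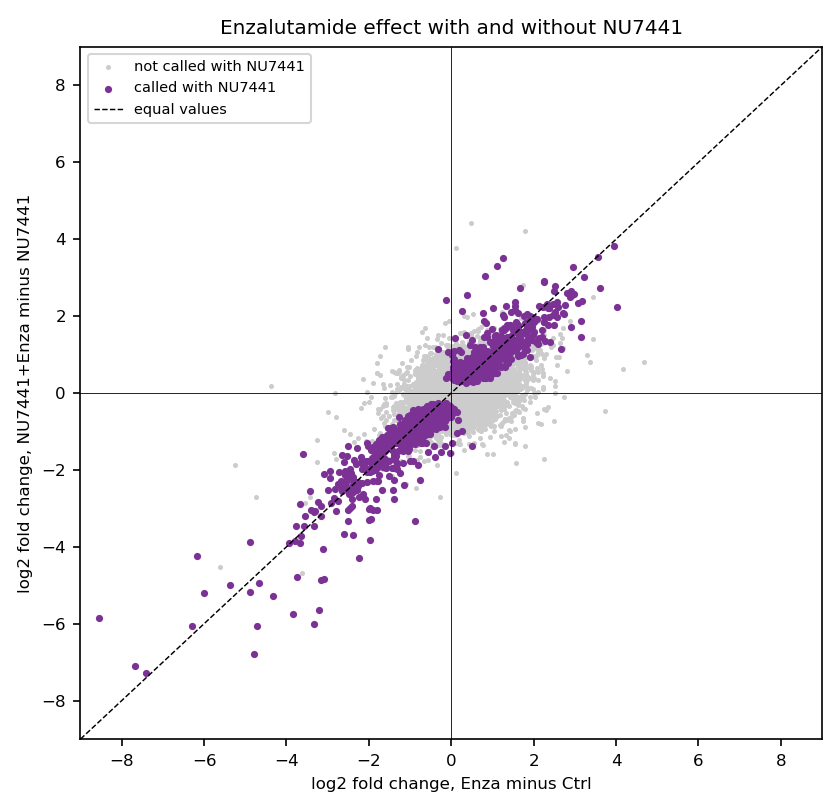
Log2 fold change of NU7441+Enza minus NU7441 (vertical axis) against that of Enza minus Ctrl (horizontal axis), 1 point per gene tested. Purple points are the 1389 genes called with NU7441, of which 1372 have the same sign on both axes; the dashed line marks equal values.

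Androgen targets followed that pattern with small differences either way. KLK3 fell by 1.94 ± 0.12 with NU7441 and by 1.59 ± 0.12 without it, an interaction of −0.34 ± 0.16 with an unadjusted p of 0.0426. For TMPRSS2 the changes were −2.30 ± 0.12 and −1.80 ± 0.12, an interaction of −0.50 ± 0.16 (unadjusted p = 0.00426). Its fall with NU7441 was smaller without replicate 2 of NU7441, as given above, so this difference rests in part on that library. KLK2 stood at −2.62 ± 0.13 against −2.15 ± 0.13 (−0.47 ± 0.18, unadjusted p = 0.0124). SLC45A3 (−3.45 ± 0.12 and −3.34 ± 0.12) and ABCC4 (−1.62 ± 0.10 and −1.72 ± 0.10) had values closer together. The interaction median was −0.28 over the kallikreins and secreted proteins, 0.07 over the membrane proteins and −0.03 over the regulators, where that of all genes was −0.04. None of these differences passed the adjusted test.

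The 3 genes with the smallest interaction p, none of them called, were SOCS2, ACTA2 and HS3ST1. SOCS2, a brake on growth hormone signalling, stood at 18.5, 14.9 and 15.5 CPM in Ctrl, 4.35, 3.93 and 3.56 CPM with Enza, 17.6, 18.5 and 16.4 CPM with NU7441 and 7.19, 6.87 and 7.19 CPM with both. Its fall was thus 1.30 ± 0.11 with NU7441 and 2.04 ± 0.12 without it (interaction 0.74 ± 0.17, unadjusted p = 0.000143, edgeR adjusted p = 0.692). ACTA2, smooth muscle actin, stood near 4 CPM in Ctrl and Enza and at 1.11, 0.928 and 1.22 CPM with NU7441. With Enza added to NU7441 it rose to 2.14, 2.19 and 2.21 CPM (1.00 ± 0.17), while the change without NU7441 was 0.01 ± 0.15 (unadjusted p = 0.000178). HS3ST1, a heparan sulfate sulfotransferase, rose by 0.78 ± 0.10 without NU7441, and its value with NU7441 was 0.17 ± 0.10 (unadjusted p = 0.00022). GBP2 (1.11 ± 0.20 and 0.19 ± 0.18) and UGT2B17 (1.81 ± 0.21 and 0.85 ± 0.19) also had unadjusted p-values of 0.00193 and 0.0021. Without the pair of libraries that spread most, SOCS2 (0.81), FN1 (−0.57) and KCNN2 (−0.45) were called for the interaction. With no filter on low counts GBP2 was (0.94, edgeR adjusted p = 0.0395), among 23 genes.

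**Figure D5:**
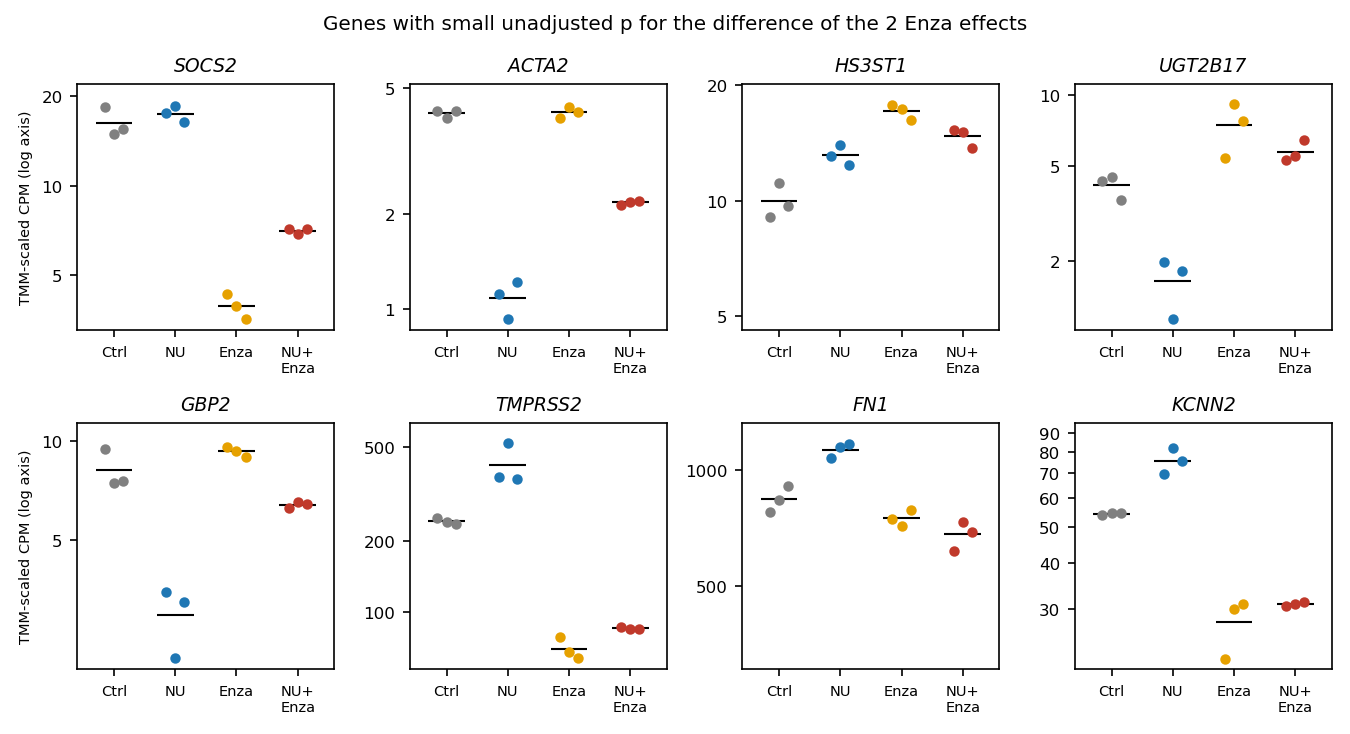
TMM-scaled CPM on a log axis for 8 genes in the Ctrl, NU7441 (NU), Enza and NU7441+Enza (NU+Enza) libraries, with 1 point per library and a line at the mean of 3. SOCS2 falls less with Enza in the presence of NU7441, while ACTA2, GBP2 and UGT2B17 start lower with NU7441 and end above it with both; no interaction was called in the joint fit with the filter on low counts.

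Enzalutamide was also added to cells given the other inhibitors, in libraries that share none with the comparison. CC-223, a TOR kinase inhibitor, gave 2839 calls (12.4%, with 5.66% higher and 6.76% lower) for CC-223+Enza against CC-223, and 1195 genes were called in the same direction in both, 86.0% of the NU7441 list and 42.1% of the CC-223 list. CC-115, which inhibits DNA-PK and TOR kinase, gave 5451 calls (23.8%, with 11.7% higher and 12.2% lower), of which 1005 were shared in the same direction, 72.4% and 18.4% of the lists. The sign was the same for 99.1% of the 1389 genes beside CC-223 and for 92.2% beside CC-115. KLK3 changed by −1.53 ± 0.12 with CC-223 and by −1.73 ± 0.12 with CC-115, against −1.94 ± 0.12 with NU7441. MAF changed by −3.03 ± 0.14 with NU7441, −4.82 ± 0.14 with CC-223 and −5.86 ± 0.16 with CC-115. WNT5A rose by 1.84 ± 0.13 with NU7441 and by 1.37 ± 0.13 with CC-223, and it fell by 0.54 ± 0.13 with CC-115. Differences between these inhibitors were not tested, and replicate 1 of CC-115+Enza, which spread most within its group, is among the libraries behind the CC-115 values.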

How the data were processed

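RNA of C4-2 cells was sequenced as total RNA with ribosomal RNA removed (a stranded kit, per the labels). The authors deposited whole-number read counts for each Ensembl feature. Per the submitters' processing notes, the authors aligned reads to hg19 with STAR 2.5.2a, counted them with featureCounts 1.5.0-p3 and tested with DESeq2 1.14.1. The annotation release and strand setting were not given in the sources used here. The 22Rv1 table was not used here.

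Sample titles gave the groups. A joint model of all 24 libraries of C4-2, having a term for each group, was tested by quasi-likelihood in edgeR 4.0.16 (with R 4.3.3 and limma 3.58.1) after filterByExpr (22860 of 63677 features) and TMM scaling; CPM are counts divided by the TMM-scaled library total in mega-reads. The contrasts were NU7441+Enza minus NU7441, its interaction, and Enza added to nothing, CC-115 or CC-223. Each SE was derived from the fitted log2 change and its F statistic (size of the change over √F). Replicates differed by more than counting noise (the closest pair had a chi-square of 4.01 per degree of freedom), so their spread set the precision of abundant genes.

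The members, 26 gene lists and 3 marker lists (516 entries, 510 with an identifier) were chosen with earlier results of these data known. Named genes were KLK3 and PRKDC, the 12 largest rises and falls among called protein-coding genes with an average log2 CPM of at least 1 and no overlap between groups, 3 noncoding RNAs in each direction, up to 4 called members per list with the largest change, and 3 genes for the interaction. Those named as the single or few members of a list called in a direction (ACP3, TSC22D3, ELOVL6, GALNT3, COL3A1, KRT14, ERBB2, FBXO32, CCNG2, DRAIC), further members of a list that were called (KLK4, KLK15, KLKP1, ACKR3, SI, MET), those that were not (FOXA1, HOXB13, KRT8, KRT18), CDK1, and FN1 and KCNN2 were chosen after their values were seen. Some genes that this rule names are not reported here. Gene types came from GENCODE and promoters from RefSeq (GRCh38.p14). Alternatives were median-of-ratios size factors, DESeq2 1.42.0, other filters, removal of small and mitochondrial RNA, fits of fewer libraries and a replicate block. Tested on simulated data for this comparison, the fit found 32.8% of genes altered 1.5-fold, 74.6% at 2-fold and 87.9% at 4-fold. It made 4 false calls in 21969, and 5 for the interaction. Apart from the altered genes, the simulation drew all libraries around a shared mean per gene. It held no library that spreads more than its group, as replicate 1 of Enza does, so its rates may not hold for the real libraries. Python 3.11.15, pandas 2.3.3, numpy 2.4.6 and matplotlib 3.10.9 were used.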

Additional observations from a re-analysis of the deposited data

How the results depend on the processing

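Calls of NU7441+Enza against NU7441 numbered 1389 in the joint edgeR fit and 2759 (1243 rises and 1516 falls) when the libraries of the 2 groups compared alone entered the fit. Without replicate 1 of Enza and replicate 1 of CC-115+Enza, whose root mean square deviation from their group means was 0.432 and 0.441 on the log2 scale against 0.204 to 0.256 in the 6 libraries compared, they numbered 3632 (1701 and 1931), and 1388 of the 1389 were among them. Other scaling, DESeq2, other filters and removal of small and mitochondrial RNA gave 1303 to 1520, and leaving out 1 of the 6 libraries in turn gave 986 to 1222. With a replicate block there were 1283, and 0 for the interaction; deviations of same-numbered libraries correlated at 0.09, 0.025 and 0.022, and not every library correlated best with its own number, so they share a number only. Calls of the interaction numbered 0 in the joint fit, 23 with no filter on low counts (2 higher and 21 lower, all of them genes that pass the filter) and 3 without the pair of libraries, and 0 when any 1 of the 12 libraries of its 4 groups was left out. Of the 23, RNU2-61P had 9156 reads in replicate 1 of Enza against 779 and 696 in the others; the cause of these calls was not tested. Of 92 called named genes 74 were called in every alternative, and none turned direction. The 18 others were ARLNC1, PART1, GATA2, NCOR1, MANF, ARG2, SMS, STARD4, FDFT1, PFKFB2, HK2, SLC2A1, BARD1, APLF, PHGDH, PSAT1, ATF3 and SLC7A5. Removal of small RNA and DESeq2 moved the share of falls from 54.7% to 58.5% and 59.3%.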

Other observations

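Some gene clusters and families held several calls, and a few of their members were in the lists above. They were chosen after their values were seen, and their counts support nothing beyond themselves. Members were taken by gene name, and of all genes tested 2.75% rose and 3.32% fell. Of 15 genes of the HOXA cluster, which patterns the body axis and the genital tract, 6 rose and none fell. HOXA13, at the end of the cluster that marks posterior tissue, went from 4.24, 2.70 and 3.91 CPM to 12.4, 11.9 and 10.6 CPM (1.68 ± 0.15, edgeR adjusted p = 4.67e-09). The noncoding HOTTIP beside it rose by 2.12 ± 0.31 from under 1 CPM, and HOXA10 by 0.90 ± 0.13. Of 11 genes of the HOXC cluster 6 rose as well, among them HOXC9, from 5.62, 5.77 and 6.54 CPM to 19.3, 17.5 and 20.1 CPM (1.67 ± 0.13), HOXC13 (1.36 ± 0.09) and HOXC12 (1.20 ± 0.23). Enza without NU7441 gave HOXC9 1.54, HOXC13 1.34 and HOXA13 1.29. Read sharing between these overlapping and antisense genes cannot be told apart from their own change.

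Of 22 genes with names in WNT, FZD, SFRP or DKK, 6 rose and 1 fell, with a median of 0.03. Those that rose beside WNT5A were its antisense RNA WNT5A-AS1 (2.04 ± 0.41), WNT4 (0.95 ± 0.20), FZD2 (0.77 ± 0.18), FZD7 (0.69 ± 0.14) and FZD3 (0.34 ± 0.10). FZD5 fell (−0.37 ± 0.10). Of 32 genes with names from ABCA to ABCG, not all of them transporters, 5 rose and 3 fell, ABCA1 and ABCC4 of the lists above included. ABCG1, which exports sterols, rose by 1.21 ± 0.15 and the drug exporter gene ABCG2 by 1.33 ± 0.21, while ABCC1 fell by 0.80 ± 0.17. IGF1, the ligand of IGF1R, stood at 4.06, 2.32 and 4.95 CPM with NU7441 and at 1.63, 2.00 and 1.73 CPM with Enza added (−1.08 ± 0.21). It was 1 of 4 falls among 17 genes with names in IGF, INSR or IRS. The other 3 were IGF1R, IRS1 and IRS2 of the lists above.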
